A study of Rattus norvegicus with 12 samples.

Results

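Collagens are the structural proteins of the extracellular matrix, built from chains wound into a triple helix. Fibrillar collagens such as types I, III and V form the fibres between cardiomyocytes and are made mainly by fibroblasts, whereas type IV collagens form the sheet-like basement membrane around cardiomyocytes and vessels. Other families decorate fibrils (the fibril-associated or FACIT collagens), form beaded filaments (type VI), link matrix to basement membranes (the multiplexins XV and XVIII) or span the cell membrane. Deposition of collagens I and III in the atrial wall is a hallmark of atrial fibrosis.

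The collagen genes were those with counts whose symbol consists of Col, a number, the letter a and a number, which gave 44 of the 21239 genes with counts. They comprised 11 fibrillar, 6 basement membrane and 27 other collagens. RNA-seq was made of left atrial tissue from male rats, with 3 libraries in each of 4 groups. Wistar-Kyoto (WKY) rats, the normotensive strain, and spontaneously hypertensive rats (SHRs) received saline at 7.5 mL/kg/day. The ARB group consisted of SHRs given valsartan, an angiotensin receptor blocker, at 30 mg/kg/day, and the ARNI group of SHRs given sacubitril/valsartan, which adds a neprilysin inhibitor, at 60 mg/kg/day. The rats were bought at an age of 14 weeks, treatment lasted 4 weeks, and part of each left atrium was frozen for RNA extraction. Levels are given as CPM, the expected counts that the authors deposited for a gene scaled by the total count of its library. Since gene length enters these values, levels are compared between libraries, and no order of levels between genes is drawn.

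Several properties of the libraries touch every result. In 6 libraries, all those of WKY and SHR, the title gives one strain in words and the other in the library name, and the name was used to form the groups. Reversing the assignment would reverse every direction between SHR and WKY. For the treated groups the labels give WKY as strain and SHR as phenotype, and both were taken as SHRs. Ndufa10l1 was listed at 0 in the 3 WKY libraries and at 54.0 to 119 CPM in the other 9. The 6 markers of atrial cardiomyocytes summed to 52.4 to 280.3 CPM in WKY and to 27693 to 77097 CPM in SHR, so the atrial label of the WKY libraries was not borne out by its markers. The atrial light chain gene Myl7 stood at 0.889 to 15.9 CPM in WKY, compared with 4478 to 10641 CPM in SHR. The ventricular light chain gene Myl2 stood at 3489 to 3776 CPM in WKY. ARNI replicate 2 carried 9.67 CPM of Myl7 and 4161 CPM of Myl2, and SHR replicate 2 and ARB replicate 3 carried 2298 and 2573 CPM of Myl2 beside 4478 and 5144 CPM of Myl7. Of 6 ventricular markers, 5 were lower in every SHR library than in any WKY library. Of these Myh7 alone passed edgeR's test (log2 fold change -4.65, adjusted p = 0.0275). The other marker, Lrrc10, went the opposite way, at 17.7 to 24.6 CPM in WKY and 38.2 to 75.0 CPM in SHR. Lrrc10 passed as higher (log2 fold change 1.19, adjusted p = 0.0204 by edgeR). A chamber score was the mean log2 level of 6 atrial markers minus that of these 6 ventricular markers, Lrrc10 included. The score was -7.03 to -6.94 in WKY, -6.01 in ARNI replicate 2 and 2.44 to 8.77 in the other 8 libraries. Strain, blood pressure and heart chamber therefore cannot be told apart between SHR and WKY. In such tissue samples, a change in the number of cells of a type and a change in RNA per cell cannot be told apart either.

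The type IV genes lie in head-to-head pairs, and the promoters of Col4a1, Col4a3 and Col4a4 are shown because the paired chains are compared below. RefSeq (GRCr8) lists the starts of Col4a2, on the minus strand, and Col4a1, on the plus strand, 77 bases apart on chromosome 16 (84885520 and 84885597). The windows of 250 bases before and 50 bases after each start therefore overlap by 176 bases. Col4a4 and Col4a3 start 413 bases apart on chromosome 9, with windows that overlap by 88 bases, while Col4a6 and Col4a5 start 1415 bases apart on the X chromosome, with no overlap. The windows of Col4a1 (chr16:84885347-84885646, plus strand), Col4a3 (chr9:91323740-91324039, plus strand), Col4a4 (chr9:91323528-91323827, minus strand), Col18a1 (chr20:11473395-11473694, plus strand) and Col19a1 (chr9:34518208-34518507, minus strand) read 5′ to 3′ as follows. The last 2 belong to genes that changed in opposite directions between SHR and WKY, and capitals mark matches to the searched motifs on either strand.
Col4a1: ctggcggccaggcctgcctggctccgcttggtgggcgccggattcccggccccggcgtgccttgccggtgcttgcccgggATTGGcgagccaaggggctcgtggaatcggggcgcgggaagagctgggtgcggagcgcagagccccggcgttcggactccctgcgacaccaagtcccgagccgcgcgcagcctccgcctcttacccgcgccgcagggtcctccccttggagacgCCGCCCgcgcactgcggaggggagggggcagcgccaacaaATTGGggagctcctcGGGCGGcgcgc
Col4a3: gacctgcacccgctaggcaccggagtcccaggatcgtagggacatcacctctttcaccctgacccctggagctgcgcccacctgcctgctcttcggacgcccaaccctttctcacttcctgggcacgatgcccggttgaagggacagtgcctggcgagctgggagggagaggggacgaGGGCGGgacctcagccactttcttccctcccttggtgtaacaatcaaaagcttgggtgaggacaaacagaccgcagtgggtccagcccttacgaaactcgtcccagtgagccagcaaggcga
Col4a4: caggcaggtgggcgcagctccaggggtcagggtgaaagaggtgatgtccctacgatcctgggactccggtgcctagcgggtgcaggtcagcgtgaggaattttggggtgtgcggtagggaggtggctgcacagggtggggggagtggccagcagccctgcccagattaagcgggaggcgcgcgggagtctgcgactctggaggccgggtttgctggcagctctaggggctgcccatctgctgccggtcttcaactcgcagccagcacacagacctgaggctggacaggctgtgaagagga
Col18a1: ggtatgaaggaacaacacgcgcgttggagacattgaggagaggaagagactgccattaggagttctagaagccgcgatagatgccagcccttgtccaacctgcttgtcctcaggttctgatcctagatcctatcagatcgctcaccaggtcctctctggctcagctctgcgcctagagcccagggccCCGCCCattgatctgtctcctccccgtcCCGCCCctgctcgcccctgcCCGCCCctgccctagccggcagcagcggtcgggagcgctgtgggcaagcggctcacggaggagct
Col19a1: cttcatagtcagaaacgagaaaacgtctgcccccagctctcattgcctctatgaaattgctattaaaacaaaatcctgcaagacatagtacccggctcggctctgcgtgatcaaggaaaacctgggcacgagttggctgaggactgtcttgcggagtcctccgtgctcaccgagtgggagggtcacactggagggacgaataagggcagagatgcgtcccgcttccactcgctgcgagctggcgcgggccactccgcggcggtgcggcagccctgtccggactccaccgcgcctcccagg
RefSeq windows were matched for 35 of the 44 genes, with 38 windows in all. The TATA box letters TATAAA occurred in 4 of the 38 collagen windows (10.5%) and in 14.2% of all 33469 rat windows. CCAAT occurred in 12 collagen windows (31.6%) and in 37.5% of all windows. The GC box letters GGGCGG occurred in 20 collagen windows (52.6%) and in 33.1% of all windows. These matches describe letters in a window and not binding.

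Of the 44 collagen genes, 37 had a read in all 12 libraries and Col26a1 had none. In all, 9 genes were too low to be tested in any comparison (Col10a1, Col22a1, Col23a1, Col25a1, Col26a1, Col2a1, Col6a4, Col9a1 and Col9a2), none of which had more than 16 reads in a library. Between SHR and WKY 32 genes were tested, and 34 were tested in each comparison of the treated groups. Pooled over the 12 libraries, most collagen reads fell on Col3a1, Col4a1, Col1a1, Col4a2 and Col1a2, a share to which gene length contributes and whose order differed between the groups. Together these 5 genes held 60.4% to 70.5% of collagen reads in every library.

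The shares of the types of collagen separated SHR from WKY, whereas the total collagen level did not. Collagen reads made up 0.337% ± 0.0126 (SD, n = 3) of all reads in WKY and 0.342% ± 0.233 in SHR. In SHR the 3 libraries held 0.209%, 0.206% and 0.611%, so that replicate 3 was above and the other 2 were below every WKY library. Fibrillar collagens made up 39.5%, 40.4% and 38.9% of collagen reads in WKY and 56.2%, 50.9% and 65.4% in SHR. Basement membrane collagens made up 32.4%, 30.7% and 35.6% in WKY and 24.1%, 27.6% and 14.6% in SHR. For both shares the SHR libraries lay wholly on one side of the WKY libraries. Expressed as summed CPM, the basement membrane collagens stood at 1042, 1056 and 1225 in WKY and at 503, 569 and 893 in SHR, again without overlap. The summed fibrillar level was 1274, 1393 and 1335 CPM in WKY and 1174, 1049.8 and 3997 CPM in SHR, where replicate 3 alone exceeded WKY. The sums have no test.

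**Figure D1:**
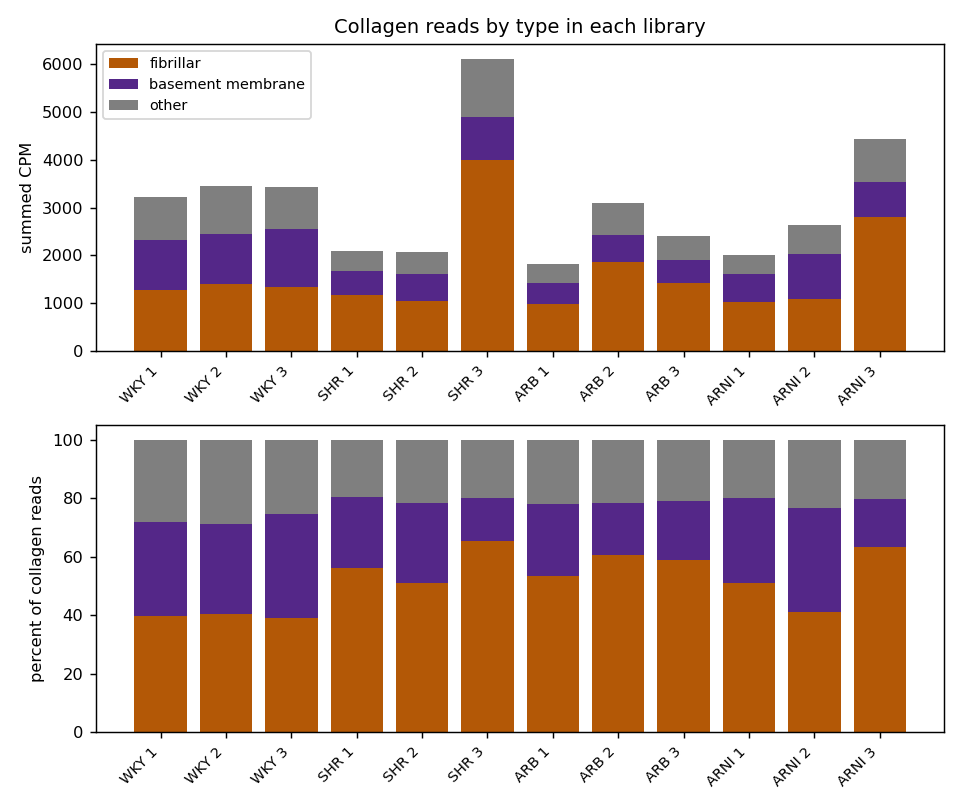
Summed CPM (upper panel) and percent of collagen reads (lower panel) of fibrillar, basement membrane and other collagens in each of the 12 libraries. Fibrillar collagens took 38.9% to 40.4% of collagen reads in WKY and 41.0% to 65.4% in the other libraries, with the lowest of these in ARNI replicate 2.

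Between SHR and WKY, 8 of the 32 collagen genes tested passed an adjusted p of at most 0.05 (edgeR's quasi-likelihood test, Benjamini-Hochberg adjustment over 13794 genes), 4 of them higher and 4 lower in SHR. Among all genes tested 20.6% passed, with 12.3% higher and 8.26% lower. When the log2 fold change also had to reach 1 in size, as for the DEGs of the study, 5 collagens passed (2 higher and 3 lower), compared with 8.89% of all genes (5.54% higher and 3.35% lower). At an unadjusted p under 0.05 there were 14 collagens and 39.4% of all genes. The groups did not overlap for 7 collagens that were higher and 8 that were lower, compared with 33.7% and 15.9% of all genes. The median log2 fold change was 0.10 over the 32 collagens, 0.35 over the 9 fibrillar, -0.35 over the 6 basement membrane and 0.05 over the 17 other collagens tested, against 0.01 over all genes. With the chamber score as a covariate in a fit of all 12 libraries, 0 collagens and 70 of 14452 genes passed. The score nearly coincides with the groups, at -7.03 to -6.94 in WKY and 2.44 to 8.77 in SHR. Among SHRs only ARNI replicate 2 (-6.01) lies near WKY. The loss of calls in this fit therefore cannot tell chamber from strain. A fit of all 12 libraries without the covariate called 5 collagens and 1178 of 14452 genes, losing Col11a2, Col13a1 and Col27a1. Leaving out 1 library changed the count: 18 collagens passed without SHR replicate 3, 11 without SHR replicate 2, 4 without SHR replicate 1, and 1, 1 and 2 without WKY replicates 1, 2 and 3. The calls over all genes changed too, from 2837 of 13794 with all 6 libraries. They were 2505 of 13943, 5310 of 14035 and 961 of 14012 without SHR replicates 3, 2 and 1. Without WKY replicates 1, 2 and 3 they were 496 of 14138, 415 of 14149 and 418 of 14145. DESeq2 called 3674 of 18705 genes. Among the collagens it called all 8 and added Col5a3, Col6a3, Col7a1, Col12a1 and Col15a1, of which Col5a3 and Col12a1 are named here only for that reason.

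**Figure D2:**
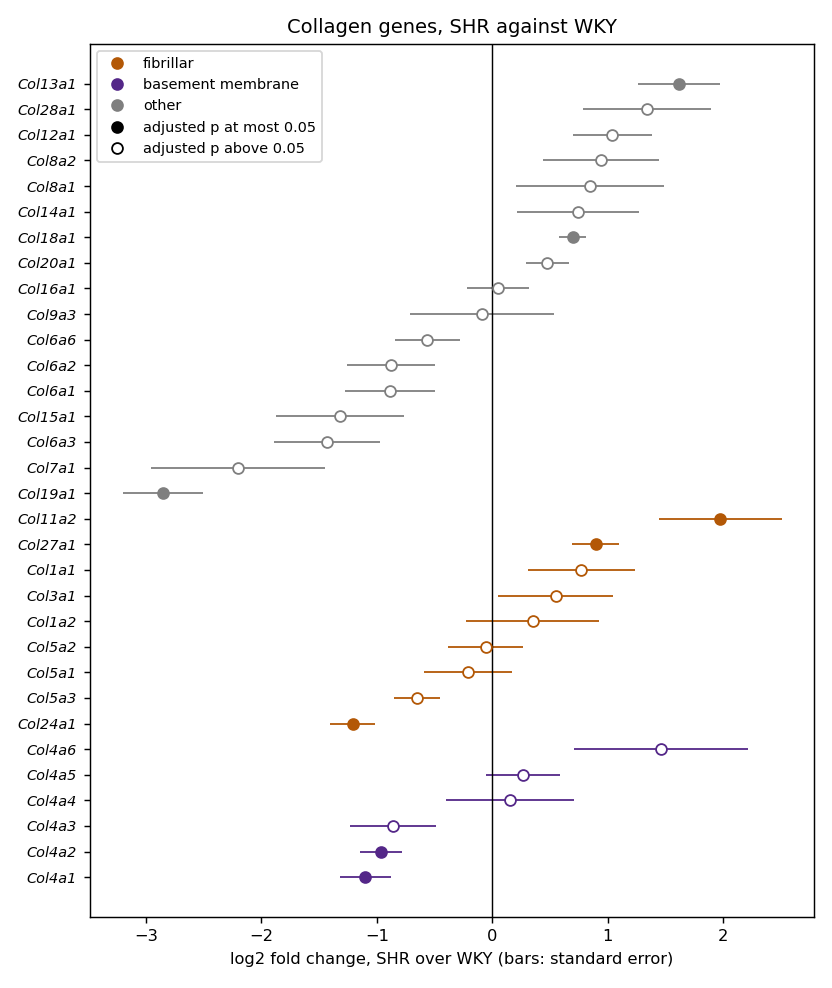
Log2 fold change of SHR over WKY with its standard error (edgeR, 3 libraries per group) for the 32 collagen genes tested, coloured by type, with filled points for an adjusted p of at most 0.05. The 8 filled points run from -2.86 (Col19a1) to 1.97 (Col11a2), and both directions occur among the fibrillar and the other collagens.

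The main chains of the basement membrane network, Col4a1 and Col4a2, fell in SHR. Col4a1 stood at 533, 525 and 651 CPM in WKY and at 217, 268 and 399 CPM in SHR, with a log2 fold change of -1.10, SE 0.22, adjusted p = 0.0213. Col4a2 stood at 422, 438 and 497 CPM in WKY and at 198, 245 and 325 CPM in SHR, with a log2 fold change of -0.96, SE 0.18, adjusted p = 0.0181. For both genes every SHR library lay below every WKY library, although the call for Col4a1 was lost without SHR replicate 1 (adjusted p = 0.0545) and both calls were lost without any 1 of the WKY libraries (adjusted p = 0.0645 to 0.0846). The chains α1 and α2 assemble in the same heterotrimer, and the ratio of their counts, 1.01 to 1.31 over all 12 libraries, varied far less than their levels. The other type IV chains, which form the α3α4α5 and α5α6 networks, did not pass the test with all 6 libraries. Without SHR replicate 3 Col4a3 passed as lower (log2 fold change -1.40, adjusted p = 0.0167 by edgeR). Without SHR replicate 2 Col4a6 passed as higher (log2 fold change 1.94, adjusted p = 0.0115 by edgeR). Col4a3 stood at 22.2, 22.0 and 16.3 CPM in WKY and 6.90, 9.42 and 20.9 CPM in SHR (log2 fold change -0.86, SE 0.37, adjusted p = 0.138). Col4a4, its head-to-head partner, stood at 2.30, 3.74 and 1.87 CPM and 2.14, 1.42 and 6.30 CPM (log2 fold change 0.16, SE 0.55, adjusted p = 0.855), so that SHR replicate 3 was above all WKY libraries for Col4a4 but within their range for Col4a3. The X-linked pair gave log2 fold changes of 0.27, SE 0.32, adjusted p = 0.559 for Col4a5 and 1.46, SE 0.75, adjusted p = 0.195 for Col4a6. Col4a6 reached 12.9 CPM in SHR replicate 3 and 1.10 CPM in SHR replicate 2, a spread wider than the difference between the groups. Of 6 endothelial markers 3 had positive and 3 negative values, and Cdh5 alone was called (log2 fold change -0.79). Of 6 pericyte markers 5 were negative, with Cspg4 (-0.53) and Kcnj8 (-1.04) called lower in SHR, and all 5 smooth muscle markers were negative, with Myh11 (-1.13) called. Among all genes tested 8.26% were called lower, so these few calls per list do not set the lists apart. The summed pericyte list of 6 genes stood at 597 to 649 CPM in WKY and 535 to 586 CPM in SHR. Of this sum Abcc9, the 1 pericyte marker with a positive value, held 293 to 309 CPM in WKY and 309 to 458 CPM in SHR. Rgs5, among the 5 negative ones, held 68.2 to 84.5 CPM in WKY and 10.5 to 47.1 CPM in SHR. The sum of the 6 endothelial genes stood at 698 to 801 CPM in WKY and 576 to 841 CPM in SHR. The part of these cell types in the type IV values was not tested.

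The major fibrillar chains did not pass the test. Col1a1 stood at 201, 225 and 231 CPM in WKY and 249, 214 and 803 CPM in SHR (log2 fold change 0.77, SE 0.46, adjusted p = 0.254). Col1a2, the second chain of type I collagen, stood at 194, 205 and 187 CPM and 148, 106 and 593 CPM (log2 fold change 0.35, SE 0.58, adjusted p = 0.682). Col3a1, which encodes type III collagen of fine, compliant fibres, stood at 620.0, 688 and 647 CPM and 574, 534 and 2121 CPM (log2 fold change 0.55, SE 0.50, adjusted p = 0.444). In each of these genes SHR replicate 3 was more than 2 times any other library of either group, and SHR replicates 1 and 2 lay near or below WKY. Col5a1 (log2 fold change -0.21, SE 0.38, adjusted p = 0.713) and Col5a2 (log2 fold change -0.06, SE 0.33, adjusted p = 0.91), chains of the type V collagen that starts fibril assembly, were likewise above WKY in SHR replicate 3 and below it in SHR replicates 1 and 2, and with library totals in place of TMM the value of Col5a2 was 0.10. Without SHR replicate 3, the signs of Col1a1, Col1a2 and Col3a1 turned, with log2 fold changes of -0.013, -0.72 and -0.33, of which Col1a2 passed the test (adjusted p = 0.027). Over the 32 collagens tested the median was then -0.45, with 22 negative values, while the median over all genes was -0.00214. The fibroblast list of 6 genes summed to 2797 to 3486 CPM in WKY and to 2384, 1486 and 5008 CPM in SHR replicates 1, 2 and 3, with 0 of 6 genes called. Its part in the level of SHR replicate 3 was not tested.

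**Figure D3:**
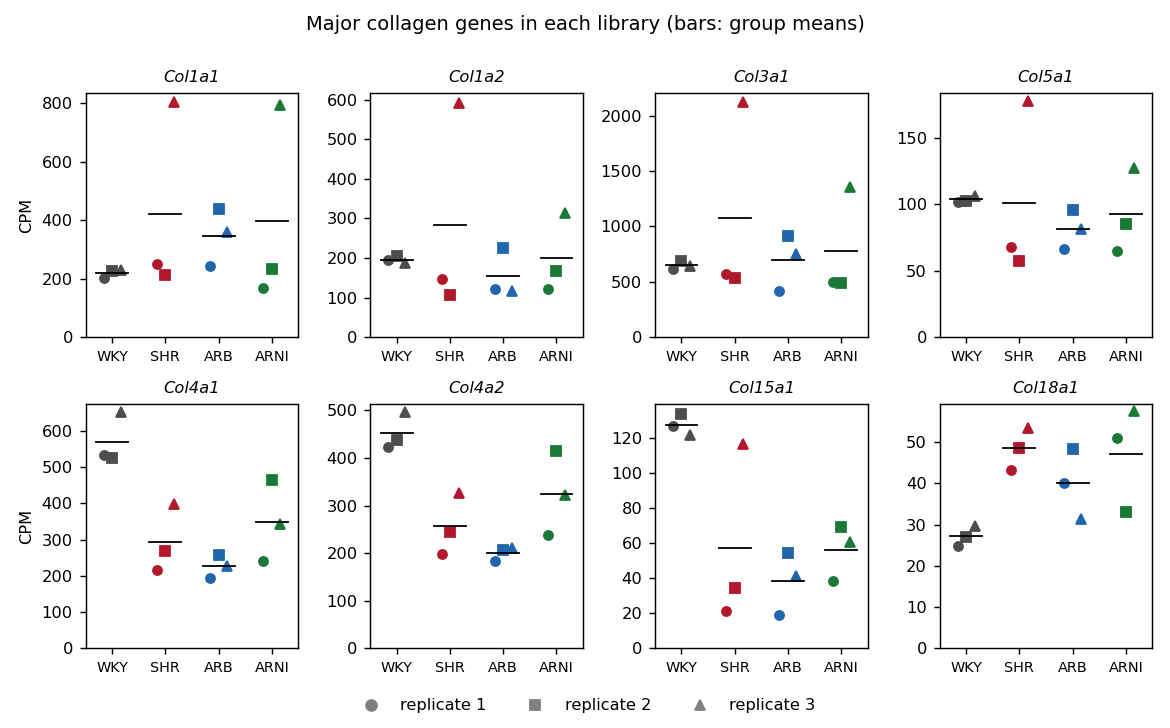
CPM of the type I, III, V and IV chains and the multiplexins Col15a1 and Col18a1 in each library, with 1 point per library and a bar at the mean of each group (n = 3). SHR replicate 3 and ARNI replicate 3 hold the highest fibrillar levels, whereas Col4a1 and Col4a2 are highest in the 3 WKY libraries.

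Of the minor fibrillar chains, Col11a2 and Col27a1 rose in SHR and Col24a1 fell. Col11a2, a chain of type XI collagen best known from cartilage, stood at 7.62, 8.37 and 6.68 CPM in WKY and 20.4, 14.5 and 65.2 CPM in SHR (log2 fold change 1.97, SE 0.53, adjusted p = 0.0443). Col27a1 stood at 14.1, 15.5 and 12.1 CPM and 26.7, 20.5 and 38.6 CPM (log2 fold change 0.90, SE 0.21, adjusted p = 0.0298). Every SHR library was above every WKY library for both, but their calls were lost without SHR replicate 1 and without any 1 of the WKY libraries (adjusted p = 0.0724 to 0.145), and the log2 fold change of Col11a2 was 1.12 without SHR replicate 3. Col24a1 stood at 12.4, 11.7 and 11.5 CPM in WKY and 4.68, 6.86 and 5.28 CPM in SHR (log2 fold change -1.21, SE 0.20, adjusted p = 0.0126). All SHR values of Col24a1 were well below the WKY values, and the call was lost without any 1 of the WKY libraries (adjusted p = 0.0582 to 0.0606). Col5a3 stood at 40.1, 46.0 and 47.3 CPM and 21.7, 32.7 and 39.0 CPM (log2 fold change -0.65, SE 0.20, adjusted p = 0.0617).

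Among the other families, the beaded filament chains gave negative values for 4 of 5 genes tested, none of which passed. Col6a1 stood at 219, 238 and 202 CPM in WKY and 76.5, 87.4 and 236 CPM in SHR (log2 fold change -0.89, SE 0.39, adjusted p = 0.143). Col6a2 followed it closely, with a log2 fold change of -0.88, SE 0.38, adjusted p = 0.138 and a ratio of Col6a1 to Col6a2 counts between 0.782 and 0.943 in all 12 libraries. Col6a3, the longest chain of the type VI monomer, stood at 156, 191 and 144 CPM and 43.2, 33.3 and 128 CPM (log2 fold change -1.43, SE 0.46, adjusted p = 0.0677), with no overlap of the groups. All 3 passed the test without SHR replicate 3, with log2 fold changes of -1.51, -1.48 and -2.19.

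The multiplexins Col18a1 and Col15a1, basement membrane zone collagens whose cleaved ends are endostatin and a related fragment, lay on opposite sides of 0. Col18a1 rose, from 24.7, 27.0 and 29.8 CPM in WKY to 43.3, 48.6 and 53.4 CPM in SHR (log2 fold change 0.70, SE 0.11, adjusted p = 0.0131). Every SHR library exceeded every WKY library, but the call was lost without WKY replicate 1 (adjusted p = 0.0616) or replicate 2 (adjusted p = 0.0698). Col15a1 stood at 127, 133 and 121 CPM in WKY and 21.4, 34.6 and 117 CPM in SHR (log2 fold change -1.32, SE 0.55, adjusted p = 0.128). It did not pass although its groups did not overlap, and SHR replicate 3 was close to WKY. The ratio of Col15a1 to Col18a1 counts was 4.08 to 5.12 in WKY and 0.473 to 2.18 in the other 9 libraries.

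Among the fibril-associated collagens, Col19a1 fell in SHR with the largest change of the 32 collagens tested between SHR and WKY. It stood at 1.53, 1.48 and 1.78 CPM in WKY, which were 18, 17 and 20 reads, and at 0.267, 0.158 and 0.271 CPM in SHR, which were 4, 2 and 4 reads (log2 fold change -2.86, SE 0.35, adjusted p = 0.00594). The call held without each of the 6 libraries in turn, with log2 fold changes of -2.96 to -2.69 and adjusted p of 0.00373 to 0.0438. Col19a1 passed the count filter only through its reads in WKY, however. It was too low to be tested in the comparisons of the treated groups. Col14a1, a FACIT of fibril surfaces, did not pass, with 79.6, 86.1 and 77.3 CPM in WKY and 78.8, 70.2 and 311 CPM in SHR (log2 fold change 0.74, SE 0.53, adjusted p = 0.332). Col12a1, its close relative, gave a log2 fold change of 1.04, SE 0.35, adjusted p = 0.0731. Of the remaining families, the transmembrane collagen Col13a1 rose from 2.64, 1.91 and 2.75 CPM in WKY to 9.23, 4.42 and 11.4 CPM in SHR (log2 fold change 1.62, SE 0.35, adjusted p = 0.0256), with every SHR library above WKY. That call was lost without SHR replicate 1 or any 1 of the WKY libraries (adjusted p = 0.0828 to 0.1). Col7a1, the anchoring fibril collagen, stood at 55, 51 and 56 reads in WKY and 1, 13 and 34 reads in SHR (log2 fold change -2.20, SE 0.75, adjusted p = 0.0786). Col8a1, a short-chain collagen of vessel walls, reached 26.4 CPM in SHR replicate 3 and lay between 4.35 and 7.64 CPM in the other WKY and SHR libraries (log2 fold change 0.85, SE 0.64, adjusted p = 0.36).

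**Figure D4:**
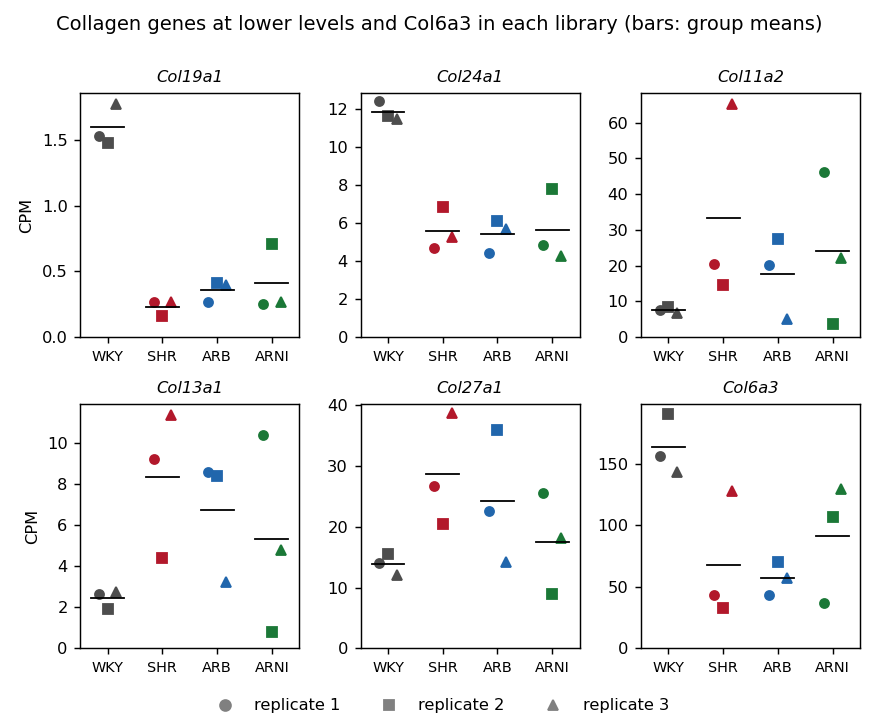
CPM of Col19a1, Col24a1, Col11a2, Col13a1, Col27a1 and Col6a3 in each library, with 1 point per library and a bar at the group mean (n = 3). Col19a1 and Col24a1 are lower in all 9 libraries of SHRs than in the 3 WKY libraries, whereas Col11a2, Col13a1 and Col27a1 are lowest in ARNI replicate 2.

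The treated SHRs, which share strain with the SHR group, were set beside them. The 3 WKY libraries lay above all 9 libraries of SHRs for 7 of the 32 collagens (Col4a1, Col4a2, Col6a3, Col7a1, Col15a1, Col19a1 and Col24a1), compared with 6.81% of all genes, and below all 9 for 1 (Col18a1), compared with 10.1% of all genes. These counts cover only genes that passed the count filter between SHR and WKY. Col11a1 did not pass it, with 0.0889 to 0.256 CPM in WKY and 0.393 to 1.26 CPM in the libraries of SHRs. Col19a1 passed it with 17 to 20 reads in WKY and 2 to 9 reads in the libraries of SHRs. ARNI replicate 2, the library with ventricular but hardly any atrial marker reads, came closest to WKY for Col4a1, Col4a2, Col19a1 and Col24a1, whereas SHR replicate 3 came closest for Col15a1 and Col7a1, ARNI replicate 3 for Col6a3 and ARB replicate 3 for Col18a1. In ARNI replicate 2 the Col4a1 level was 465 CPM, compared with 525 CPM in the lowest WKY library and 399 CPM in the highest of the other 8. Its Col4a2 level was 415 CPM, its Col19a1 level was 0.707 CPM and its Col24a1 level was 7.78 CPM, each the highest of the 9 libraries of SHRs and below WKY. Its Col18a1 level was 33.1 CPM, below all of those libraries but ARB replicate 3 (31.5 CPM), which carried ventricular markers, while SHR replicate 2, with a like chamber score (2.44 and 2.53), stood at 48.6 CPM. For the other 3 collagens that rose in SHR, ARNI replicate 2 was below every WKY library, with 3.74 CPM of Col11a2, 0.786 CPM of Col13a1 and 8.88 CPM of Col27a1. Its shares of 41.0% fibrillar and 35.7% basement membrane reads were also near those of WKY. Its share of other collagen reads, 23.2%, was below that of every WKY library (25.5% to 28.9%). Of the 6 epicardial and mesothelial markers 5 were called higher in SHR, compared with 12.3% of all genes. Their summed level was 65.4 to 89.2 CPM in WKY, 238 to 505 CPM in SHR, 81.8 to 320.3 CPM in ARB and 51.0 to 348 CPM in ARNI. This sum was lowest of the treated libraries in ARNI replicate 2 and ARB replicate 3. The part of these markers in the collagen values was not tested. With the chamber score as covariate the log2 fold changes between SHR and WKY were -1.63 for Col19a1, -0.33 for Col4a1 and 0.30 for Col18a1, and those of Col11a2, Col13a1 and Col27a1 turned negative.

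**Figure D5:**
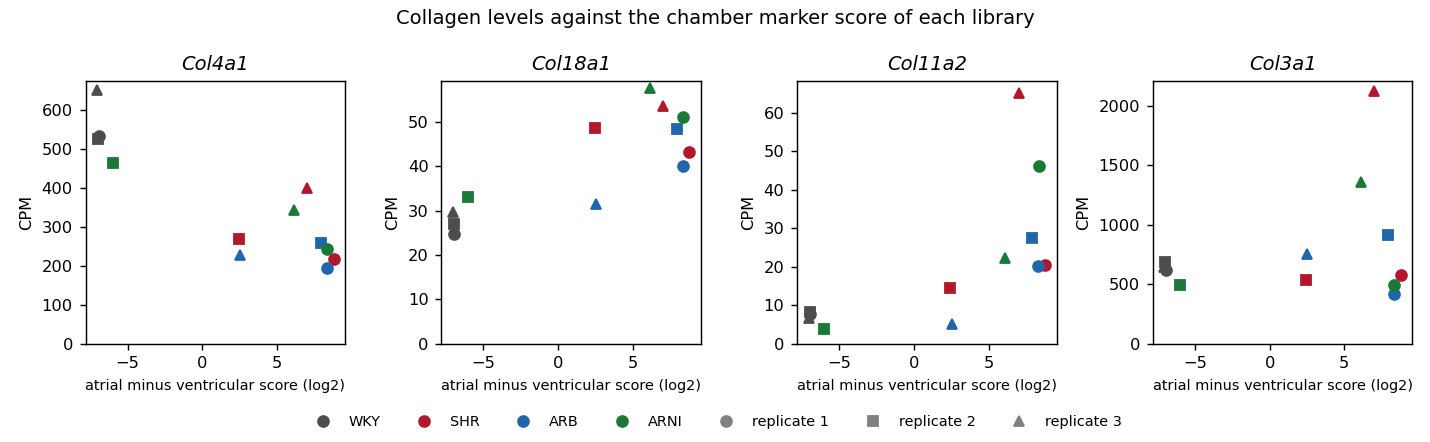
CPM of Col4a1, Col18a1, Col11a2 and Col3a1 in each library against its chamber score (mean log2 level of 6 atrial minus 6 ventricular markers). ARNI replicate 2 (score -6.01) lies next to the WKY libraries (-7.03 to -6.94) on the horizontal axis, with 465 CPM of Col4a1 and 3.74 CPM of Col11a2, both below WKY, while Col3a1 is highest in SHR replicate 3 (score 7.01).

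The ARB group was compared with SHR to ask whether valsartan changed collagen expression. In edgeR's test 0 of the 34 collagens passed, as did 0 of 13979 genes (0%), and at an unadjusted p under 0.05 there were 0 collagens and 1.61% of all genes. DESeq2 called 3 genes, none of them a collagen. No collagen separated the groups, compared with 5.39% of all genes. The values were negative for 29 of the 34 collagens, with a median log2 fold change of -0.27 against -0.00640 over all genes. That median rested on 1 library, since it was 0.05 with 19 positive values without SHR replicate 3. The negative values of largest size were those of Col4a6 (log2 fold change -1.30, SE 0.90), Col8a1 (log2 fold change -1.10, SE 0.63) and Col4a3 (log2 fold change -1.05, SE 0.45), and the largest positive were those of Col6a5 (log2 fold change 0.94, SE 0.93), Col28a1 (log2 fold change 0.39, SE 0.53) and Col8a2 (log2 fold change 0.33, SE 0.45). Col4a1 stood at 194, 259 and 228 CPM and Col4a2 at 183, 207 and 211 CPM in ARB, which overlapped SHR. Col1a1 stood at 244, 438 and 360.2 CPM and Col3a1 at 420.2, 916 and 752 CPM, all below SHR replicate 3 and with ARB replicates 2 and 3 above the other SHR libraries. All 6 basement membrane collagens were negative, with a median of -0.56, which was -0.14 without SHR replicate 3.

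In the ARNI group, given sacubitril/valsartan, 0 of 34 collagens and 0 of 13955 genes passed against SHR, and at an unadjusted p under 0.05 there were 0 collagens and 1.63% of all genes. DESeq2 called 9 genes, none of them a collagen. No collagen separated the groups, compared with 6.56% of all genes. Positive values were found for 15 collagens and negative for 19, with a median log2 fold change of -0.03. Without SHR replicate 3 the median was 0.44 with 28 positive values, and without ARNI replicate 3 it was -0.30 with 25 negative values. The largest values were those of Col28a1 (log2 fold change 0.75, SE 0.92), Col7a1 (log2 fold change 0.61, SE 1.03) and Col6a3 (log2 fold change 0.54, SE 0.64) on the positive side, and Col4a6 (log2 fold change -1.26, SE 0.88), Col8a1 (log2 fold change -1.21, SE 0.71) and Col17a1 (log2 fold change -0.74, SE 0.78) on the negative side. Col1a1 stood at 169.6, 232 and 792 CPM and Col3a1 at 496, 491 and 1358 CPM in ARNI, so that replicate 3 stood far above the other 2. Col28a1, a beaded filament collagen known from peripheral nerve, stood at 2.61, 8.52 and 3.05 CPM in SHR, 4.50, 8.94 and 5.23 CPM in ARB and 3.41, 1.81 and 18.7 CPM in ARNI. It was highest in SHR replicate 2, ARB replicate 2 and ARNI replicate 3, the libraries in which the summed level of 6 Schwann cell markers was also highest in its group (148, 156 and 212 CPM, compared with 40.1 to 130.2 CPM in the other 6 libraries of SHRs), and the part of these cells in its values was not tested. Col17a1, a transmembrane collagen of hemidesmosomes, had at most 53 reads in a library. The smooth muscle list of 5 genes summed to 847 CPM in ARNI replicate 3, compared with 275 to 398 CPM in the other 11 libraries. Of the 5 myofibroblast genes, Acta2, which both lists hold, stood at 351 CPM in ARNI replicate 3 and 168 CPM in ARNI replicate 1, compared with 51.6 to 82.3 CPM in the other 10 libraries, whereas Postn, Cthrc1, Meox1 and Fap in these 2 libraries lay within the range of the others. The adipocyte list of 6 genes summed to 598 CPM in ARNI replicate 3 and 749 CPM in ARB replicate 2, compared with 86.0 to 382 CPM in the other libraries. Its member Adipoq stood at 61.7 and 192 CPM in these libraries and at no more than 4.71 CPM elsewhere. The part of these cell types in the collagen levels was not tested. Col4a1 gave a log2 fold change of 0.36, SE 0.35, and -0.014 among the libraries with Myl2 below 0.1 of Myl7.

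The ARNI and ARB groups were compared to ask what the neprilysin inhibitor added to valsartan. Again 0 of 34 collagens and 0 of 13948 genes passed edgeR's test, and DESeq2 called 23 genes without a collagen. At an unadjusted p under 0.05 there was 1 collagen and 3.86% of all genes. That collagen was Col4a2, at 239, 415 and 322 CPM in ARNI and 183, 207 and 211 CPM in ARB, with a log2 fold change of 0.78, SE 0.27 and an adjusted p of 0.993 by edgeR. It was also the only collagen whose groups did not overlap, compared with 3.01% of all genes on that side. Its highest level was in ARNI replicate 2. Col4a1 gave 0.71, SE 0.31, with 242, 465 and 343 CPM in ARNI, whose lowest library was within the ARB range. Col4a3 gave 0.90, SE 0.40 and Col7a1 gave 1.19, SE 0.79, the largest positive value. On the negative side the largest were Col6a5 (log2 fold change -0.95, SE 1.07), Col17a1 (log2 fold change -0.64, SE 0.49) and Col27a1 (log2 fold change -0.41, SE 0.41). In all, 26 of the 34 collagens were positive, with a median of 0.28, which was 0.02 with 18 positive values without ARNI replicate 3. The 3 comparisons of treated groups share libraries, so their values are not independent of each other.

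Ratios of 2 genes within a library do not depend on the scaling between libraries. In all 8 ratios were compared over 4 pairs of groups, which gave 32 two-sided exact permutation tests with a smallest possible p of 0.1 and an adjusted value of 0.4 at that p. None can therefore reach 0.05. Between SHR and WKY the groups did not overlap for 5 ratios. The ratio of Col1a1 to Col1a2 was 1.03, 1.09 and 1.24 in WKY and 1.68, 2.01 and 1.35 in SHR, and it lay between 1.39 and 3.08 in the treated groups. Col1a1 to Col3a1 was 0.324, 0.327 and 0.357 in WKY and 0.434, 0.400 and 0.379 in SHR. For both ratios every SHR library lay above every WKY library. Col6a3 to Col6a1 was 0.710 to 0.802 in WKY and 0.381 to 0.565 in SHR. Col4a1 to Col1a1 was 2.34 to 2.82 in WKY, 0.497 to 1.25 in SHR and 2.00 in ARNI replicate 2. Col15a1 to Col18a1 was the fifth. In the treated comparisons Col1a1 to Col3a1 was 0.478 to 0.581 in ARB, above SHR. Col6a3 to Col6a1 was 0.596 to 0.715 in ARNI, above SHR and above ARB (0.502 to 0.578). No other ratio separated the groups in these comparisons. Each of these separations had a p of 0.1 in the exact permutation test, adjusted to 0.4, so none is set apart from chance.

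The genes that modify, fold, cut and bind collagens were examined next to the collagens. Of the 18 folding and modification genes tested between SHR and WKY, 5 rose and 1 fell, compared with 12.3% and 8.26% of all genes. Those that rose were P4ha3, a prolyl 4-hydroxylase chain (log2 fold change 2.33), P3h4 (1.59), Fkbp10 (1.15), Fkbp14 (0.94) and the prolyl 3-hydroxylase P3h1 (0.62). P3h4 stood at no more than 9.77 CPM in WKY and at 33.7, 24.4 and 31.8 CPM in SHR, and Fkbp10, a collagen chaperone, at 15.8, 17.0 and 15.2 CPM and at 49.0, 25.2 and 43.8 CPM. ARNI replicate 2 was again near WKY for both, with 12.4 and 13.8 CPM. The lysyl hydroxylase Plod1 fell (-0.73), from 66.6 to 80.2 CPM in WKY to 42.6 to 53.6 CPM in SHR. None of the 11 genes of procollagen processing and crosslinking tested passed, with the lysyl oxidase relative Loxl1 at 17.0 to 22.1 CPM in WKY and 48.1, 21.2 and 109 CPM in SHR (log2 fold change 1.41, adjusted p = 0.0885 by edgeR). Of 9 collagen-binding matrix genes tested, Fmod, the fibril-binding proteoglycan fibromodulin, rose (2.00), from 5.97, 10.1 and 10.7 CPM to 33.6, 38.6 and 45.9 CPM. Of 6 collagen receptors tested, the receptor tyrosine kinase Ddr1 rose (1.70), from 30.3 to 32.6 CPM to 87.0 to 137 CPM, and its relative Ddr2 fell (-0.59), from 73.5 to 80.5 CPM to 45.3 to 73.5 CPM. In ARNI replicate 2 Fmod stood at 4.72 CPM and P4ha3 at 0.633 CPM, both below every WKY library. Fkbp14 (15.2 CPM), P3h1 (18.3 CPM) and Ddr1 (50.8 CPM) lay there between the WKY and the SHR libraries. Plod1 (49.4 CPM) and Ddr2 (47.1 CPM) lay within the SHR range. Fmod was also low in ARB replicate 3, at 11.3 CPM. The part of the chamber markers in these values was not tested. In the comparisons of the treated groups, 0 genes of these 4 lists passed.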

How the data were processed

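The authors sequenced oligo(dT)-selected RNA as 50-base single reads, filtered the reads with SOAPnuke, mapped them with HISAT2 2.0.4 (genome build Rnor_6.0 in the submitters' processing notes) and with Bowtie2 2.2.5 to the coding genes, and deposited RSEM expected counts per gene without normalization. The annotation and the strand setting are not given in the sources used here. RSEM divides reads shared by similar genes, so that 23.6% of the deposited expected counts were fractional. The table lists 37246 genes, of which 16007 have no counts. It also holds the log2 fold change and p-value of the authors' comparison of SHR with WKY, which were not used.

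Expected counts were rounded, filtered by filterByExpr, scaled by TMM and tested in edgeR 4.0.16 (quasi-likelihood F test) with the 6 libraries of a pair of groups, with Benjamini-Hochberg adjustment over all genes tested. CPM are relative to the library total, which ranged from 11252361 to 15823525, so that 3 counts, the limit that a count of 0 allows, stand for 0.190 to 0.267 CPM (counting error only). Collagen genes, other gene lists, the genes to be named and the tests were chosen with earlier results of these data known. The genes named were the 10 highest collagens, those called in any comparison, the main chains of types I, III, IV, V, VI, VIII, XIV, XV and XVIII, the 3 largest changes in each direction of a comparison, and those noted in the text. Alternatives were DESeq2, other scalings, no filter, a fit of all 12 libraries, a replicate block, a chamber covariate, libraries with Myl2 below 0.1 of Myl7 and leaving out each library. The study does not say that rats with the same replicate number are related. Deviations of same-numbered libraries from their group means correlated at 0.51, 0.47 and 0.18 between ARNI and SHR for replicates 1, 2 and 3. The signs were mixed in the other comparisons. The values were 0.42, -0.24 and -0.25 between ARB and SHR and 0.52, -0.44 and -0.15 between ARNI and ARB. Between SHR and WKY they were 0.025, -0.047 and -0.075. Replicate 2 had the lowest chamber score of its group in SHR (2.44) and in ARNI (-6.01). The part of chamber content in these correlations was not tested. The main fits, also that of ARNI against SHR, used no pairing, and the replicate block served as an alternative only. On simulated counts for SHR against WKY, edgeR recovered 52% of genes changed 2-fold and 98% of those changed 4-fold among 13852 genes, with 8 false calls. The simulation gave every gene the same dispersion, drew the changed genes only from those above a count limit, and mixed no chambers. Its figures therefore do not give the power for collagens such as Col3a1, with a mean of 1076 CPM and an SD of 905 in SHR. Since each group holds 3 rats, p-values rest on the spread between 3 libraries. Promoter windows came from RefSeq (GRCr8) and were used for sequence only.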

Additional observations from a re-analysis of the deposited data

How the results depend on the processing

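Between SHR and WKY the number of collagens at an adjusted p of at most 0.05 was 8, and 13 with DESeq2, 5 with all 12 libraries in 1 fit and 0 with the chamber covariate, and it ranged from 1 to 18 when 1 library was left out. Over all genes that number was 2837, and 3674, 1178 and 70 under these alternatives, and 415 to 5310 without 1 library. The number of collagen DEGs was 5, and 9, 3 and 0 under the same alternatives and 1 to 12 without 1 library. Over all genes the number of DEGs was 1226, and 1601, 579 and 61, and 348 to 2205 without 1 library. The other scalings and no filter on low counts left both collagen counts as they were. In the treated comparisons every alternative gave 0 collagens. Library totals in place of TMM moved the median of all genes between SHR and WKY from 0.01 to 0.15 and turned Col5a2 to 0.10. The replicate block gave 6 collagens at the adjusted p, without Col11a2 and Col27a1, and 4 DEGs, beside 1030 and 681 among all genes. With the block the log2 fold changes were -0.052 for Col1a2 and -0.025 for Col4a4, and in the treated comparisons the block gave 0 collagens. In no comparison are the replicate numbers shown to pair rats.

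The chamber covariate turned Col11a2 to -1.22, Col13a1 to -1.39, Col14a1 to -0.61, Col1a2 to -0.066, Col27a1 to -0.34, Col4a4 to -0.35, Col4a5 to -0.55, Col4a6 to -1.59 and Col8a2 to -0.59, and 0 of these passed the test. The cause was not tested. Without 1 library at a time, log2 fold changes crossed 0 for 11 collagens between SHR and WKY, 23 between ARB and SHR, 26 between ARNI and SHR and 15 between ARNI and ARB. The examples between SHR and WKY are Col14a1 -0.21 to 1.06, Col1a1 -0.013 to 1.06, Col1a2 -0.72 to 0.72, Col3a1 -0.33 to 0.84, Col4a4 -0.65 to 0.48, Col4a5 -0.15 to 0.55, Col5a1 -0.83 to 0.046, Col5a2 -0.57 to 0.16 and Col8a1 -0.27 to 1.22. Between ARB and SHR, examples are Col6a5 -0.45 to 1.71, Col8a1 -1.48 to 0.018 and Col8a2 -0.036 to 0.63, between ARNI and SHR Col17a1 -1.21 to 0.47 and Col28a1 -0.77 to 1.55, and between ARNI and ARB Col6a5 -1.85 to 0.43. Among libraries with Myl2 below 0.1 of Myl7, Col4a1 was -0.014 between ARNI and SHR. Depth limits the 9 collagens that were never tested and Col19a1, with at most 20 reads in a library.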
